A study of Saccharomyces cerevisiae with 10 samples.

Results

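A group of 10 genes of fatty acid metabolism was followed through air-drying of commercial baker's yeast. They were ACC1 (acetyl-CoA carboxylase), FAS1 and FAS2 (the subunits of fatty acid synthase), OLE1 (the fatty acid desaturase), ELO1, ELO2 and ELO3 (the fatty acid elongases), and FAA1, FAA3 and FAA4 (acyl-CoA synthetases). They were chosen by name for their enzymatic roles, and are 10 of the 5656 genes that had a probe set of their own on the array. All 10 were among the 5365 genes tested, and no member was lost to the filter on dim probe sets. Of these genes, ELO1 alone passed the test, at 1 h, at 4 h and for the mean of the dried times. It was higher in all 8 dried samples than in both fresh ones, by 2.03-fold on average. Its calls at 1 h and 4 h held in 11 and 12 of 21 alternative settings. In a test over all 4 dried times at once it did not pass (limma F test, adjusted p = 0.062). The other 9, including the carboxylase, both synthase subunits and the desaturase, had no change passing the test in any comparison under the main settings. Calls of ELO3 and FAS1 under alternative settings are given below. A member without a call may still have changed.

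The yeast, Saccharomyces cerevisiae, came from fed-batch culture, and its strain is not named in the labels. Compressed cells were spread on an aluminium tray and dried in an oven with air blown at 37 degrees. The groups were 1 h, 2 h, 4 h and 8 h of drying, each set against the fresh yeast of 0 h, with 2 samples per group from duplicate experiments that the design text calls independent. Poly(A) RNA from each sample was hybridised to 1 Affymetrix Yeast Genome S98 array. No group was kept warm without drying, so effects of heat, elapsed time and water loss cannot be told apart. In these bulk samples, fewer cells with a transcript and less transcript per cell cannot be told apart either.

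As background, yeast builds fatty acids in the cytosol. The carboxylase turns acetyl-CoA into malonyl-CoA, the committed step, and the synthase, a large complex of alpha and beta subunits, joins malonyl units into saturated acyl-CoA chains. The desaturase, a membrane enzyme that needs oxygen, puts a double bond into these chains and so sets much of the fluidity of yeast membranes. Elongases in the endoplasmic reticulum lengthen chains further, and acyl-CoA synthetases activate free fatty acids taken up from outside or released from lipids. Degradation of fatty acids in yeast is by beta-oxidation in peroxisomes.

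Levels are given as array signal divided by the median of the array's non-control probe sets (times the array median), and changes as differences of the log2 of those levels. Probe sets differ in brightness, so levels are compared between samples and not between genes. A gene is said to have changed where its limma p-value, adjusted by the Benjamini-Hochberg method over all 5365 genes, was under 0.05. Errors of changes are limma's standard errors (SE), which draw on all 10 arrays, with n = 2 arrays per time. The arrays were unequally bright before scaling: their medians ran from 23.6 in 8 h replicate 1 to 115.4 in 8 h replicate 2, a ratio of 4.89. The dim arrays 8 h replicate 1 and 2 h replicate 1 also had the highest ratios of actin 3' to 5' signal, at 6.44 and 6.64, against 2.62 to 5.38 on the other 8. That ratio is a measure of RNA integrity, and its part in the results below was not tested. It was higher in replicate 1 than in replicate 2 at all 5 times. On their brightest probe sets, FAS1, FAS2, OLE1 and FAA4 were also higher in replicate 1 at all 5 times. The same held for 7.7% of all genes tested. On the next brightest probe sets of FAS1 and FAS2, replicate 1 was instead the lower at 1, 2 and 8 h. Replicates of a time correlated at r = 0.942 to 0.98 over all genes.

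**Figure D1:**
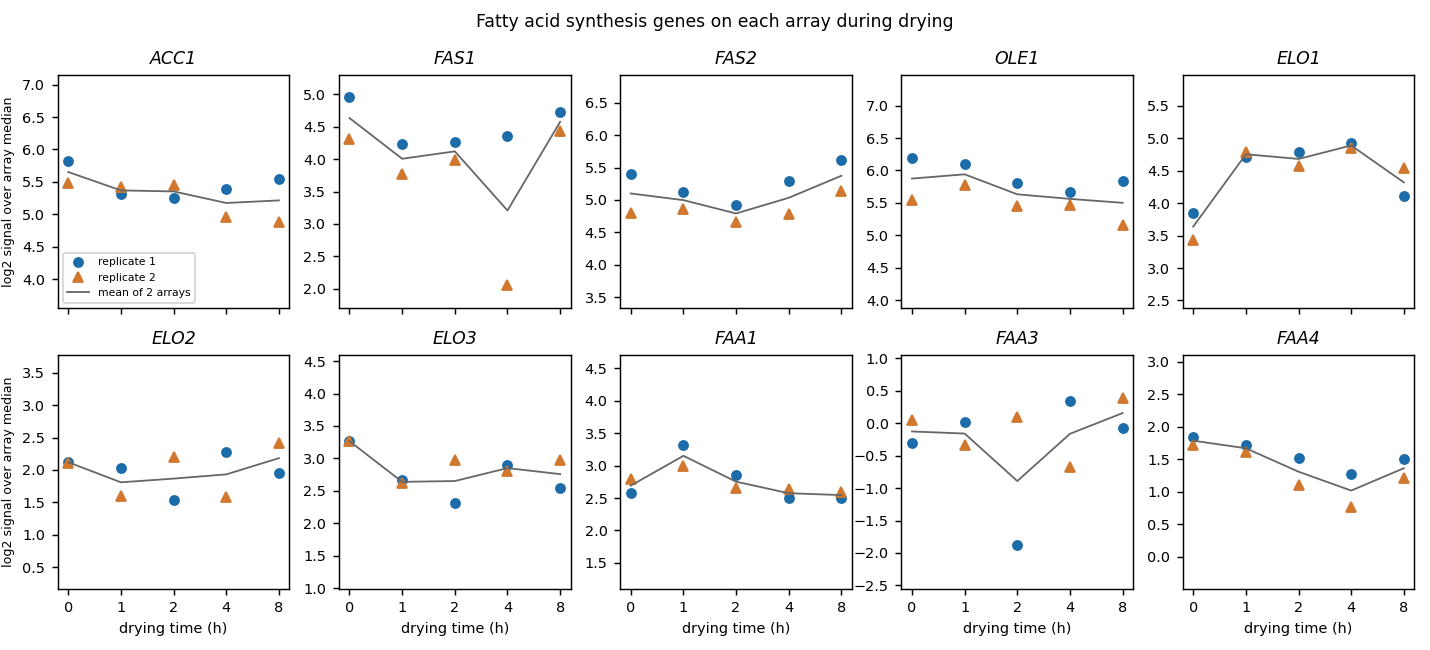
Signal of each of the 10 genes on each of the 10 arrays, as the log2 of signal over the array median, by hours of drying (0, 1, 2, 4 and 8 h; vertical axes span the same number of log2 units). Circles are replicate 1, triangles replicate 2, and lines join the means of 2 arrays. ELO1 is above both 0 h arrays on all 8 dried arrays, and ELO3 and FAA4 are below them on all 8.

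Counted over the 10 genes, 1 changed at 1 h (2.61% of all genes tested did), 0 at 2 h (1.51% of all genes), 1 at 4 h (1.45%) and 0 at 8 h (0.951%). At 2 h and at 8 h, where limma called 0 members, 2 and 1 of them had an unadjusted p under the same threshold, as did 13.1% and 9.26% of all genes. For the mean of the 4 dried times against 0 h, 1 of the 10 changed, against 2.11% of all genes. The member called was ELO1 each time. A share of 1 in 10 rests on that gene. In a test over all 4 comparisons with 0 h at once, 3.28% of all genes passed and 0 of the 10 did. At an unadjusted p 1 of them, ELO1, was under the threshold, as were 16.2% of all genes, and its adjusted p was 0.062 by limma at rank 210 of 5365.

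Directions were counted over all 10 genes. The mean of the 4 dried times was below 0 h for 8 of them, with a median log2 change of -0.19 over the 10, against -0.0037 over all genes tested. At single times the members' median changes (1, 2, 4 and 8 h) were -0.11, -0.30, -0.25 and -0.10, beside medians over all genes of 0.04, -0.05, 0.02 and 0.01. All 8 dried arrays lay on one side of both 0 h arrays for 3 members, ELO1 above and ELO3 and FAA4 below. Over all genes 8.37% had that pattern in one direction or the other. Against 0 h at single times, the share of all genes without overlap was 52.2%, 43%, 44.3% and 36.2% (1, 2, 4 and 8 h). Those shares are the background for each such statement on a gene below.

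**Figure D2:**
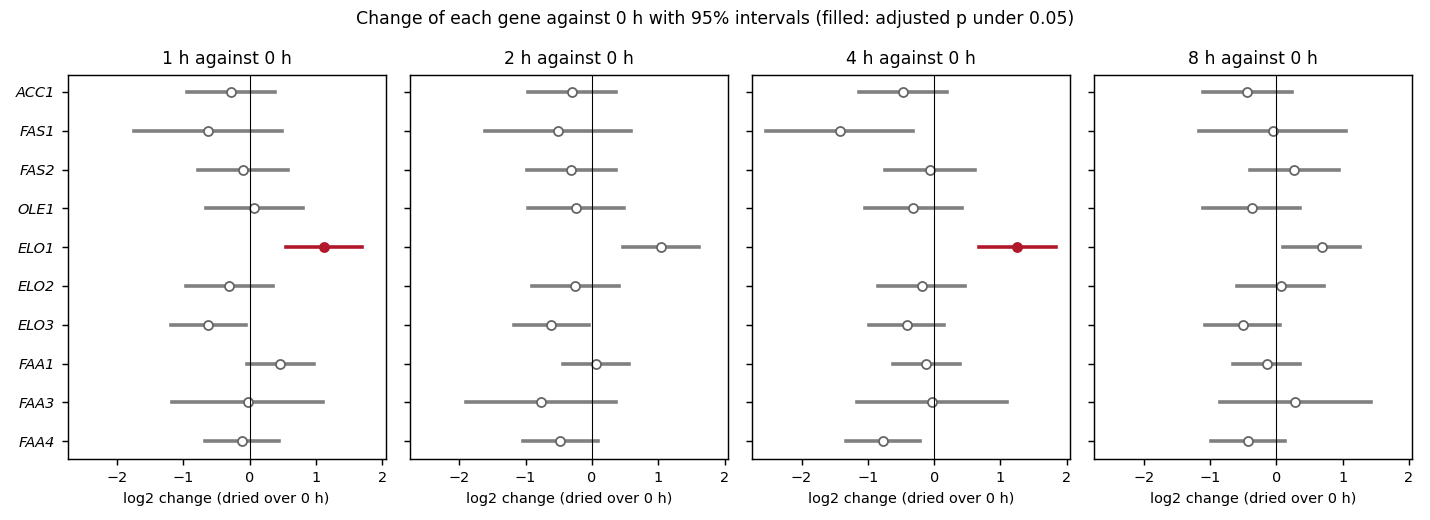
Log2 change of each of the 10 genes at 1, 2, 4 and 8 h against 0 h, with 95% intervals from limma (2 arrays per time, spread from 10 arrays); filled points passed the test. Only ELO1 at 1 h (1.12) and 4 h (1.25) passed the test; the changes of the other genes that lie farthest from 0 are FAS1 at 4 h (-1.43) and FAA4 at 4 h (-0.77).

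ACC1 (YNR016C) makes the malonyl-CoA that both the synthase and the elongases consume. Its signal was 56.6 and 44.7 times the array median at 0 h, 39.8 and 42.8 at 1 h, 37.9 and 44.0 at 2 h, 42.0 and 31.1 at 4 h, and 46.6 and 29.6 at 8 h. The 1 h, 2 h and 4 h arrays were all below both 0 h arrays, and 8 h replicate 1 lay between the fresh pair. Averaged over the dried times, ACC1 differed from 0 h by -0.37 ± 0.25 on the log2 scale (limma adjusted p = 0.628). The differences at single times were between -0.28 and -0.48, each with an SE of 0.31, and none passed the test.

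FAS1 (YKL182W) encodes the beta subunit of the synthase. Its brightest probe set read 31.0 and 19.8 times the array median at 0 h, 18.9 and 13.7 at 1 h, 19.2 and 15.8 at 2 h, 20.6 and 4.15 at 4 h, and 26.4 and 21.6 at 8 h. Both 1 h and both 2 h arrays were below the fresh pair, both 8 h arrays lay between them, and the 2 arrays of 4 h stood far apart. The 4 h mean was the lowest of the members' changes, at -1.43 ± 0.52 (limma adjusted p = 0.272), with a within-group SD of 1.63 log2 units. Without 4 h replicate 2 the same change was -0.27, and without replicate 1 it was -2.58 (adjusted p = 0.00300), so the value turns on which 4 h array is read. Averaged over the dried times, FAS1 differed from 0 h by -0.66 ± 0.41 (adjusted p = 0.604).

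The array carries 8 probe sets for FAS1, which offer a second reading of the same gene. The next brightest gave 11.6 and 9.23 times the array median at 4 h, against 11.8 and 11.7 at 0 h, a change of -0.18. Its 4 h replicate 2 value was 9.23, so the low FAS1 reading of that sample did not appear on it. At 1, 2 and 8 h its changes were -0.34, -0.57 and -0.49, against -0.63, -0.51 and -0.06 on the brightest. The 6 others were dim, with mean levels of 0.600 to 1.14 times the array median.

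FAS2 (YPL231W) encodes the alpha subunit, which carries the growing chain. Its brightest probe set read 42.4 and 27.7 times the array median at 0 h, 35.0 and 29.1 at 1 h, 30.4 and 25.2 at 2 h, 39.0 and 27.5 at 4 h, and 48.8 and 35.2 at 8 h. Every dried group overlapped the fresh pair, and the 8 h mean was the highest of the 5. The mean of the dried times differed from 0 h by -0.05 ± 0.25 (limma adjusted p = 0.966), and the change at 8 h was 0.27 ± 0.32. Of the 8 probe sets for FAS2, the next brightest had changes of -0.48, -0.81, -0.24 and -0.42 at 1, 2, 4 and 8 h, so the sign at 8 h depended on the probe set read. Across the 10 arrays the brightest probe sets of FAS1 and FAS2 correlated at r = 0.609, a description of arrays that share scaling and include the single low FAS1 reading.

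**Figure D3:**
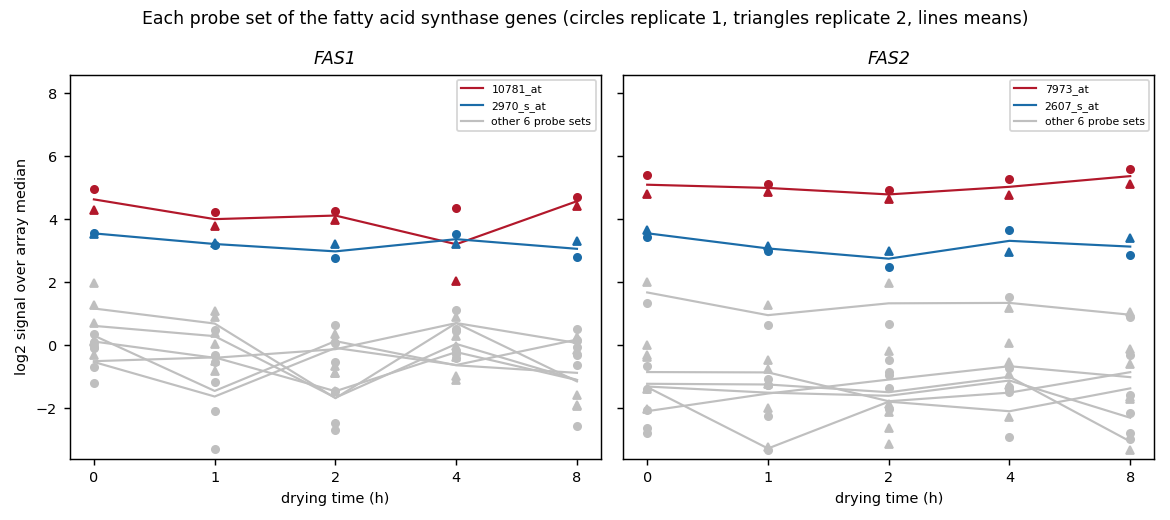
Log2 signal of the 8 probe sets of FAS1 and the 8 of FAS2 on each of the 10 arrays, by hours of drying, with circles for replicate 1, triangles for replicate 2 and lines through the means; the 6 dimmer probe sets of each gene are grey. The low point of FAS1 at 4 h (4.15 times the array median) is on the brightest probe set, while the next brightest reads 9.23 in the same sample.

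OLE1 (YGL055W) encodes the only fatty acid desaturase of this yeast. Its signal was 73.5 and 46.9 times the array median at 0 h, 68.7 and 54.9 at 1 h, 56.1 and 43.8 at 2 h, 50.7 and 44.0 at 4 h, and 57.4 and 35.8 at 8 h. Each dried group had an array inside the range of the fresh pair. The mean of the dried times differed from 0 h by -0.22 ± 0.27 (limma adjusted p = 0.847), with a 95% interval of -0.79 to 0.36. The changes were 0.07, -0.24, -0.31 and -0.37 at 1, 2, 4 and 8 h, each with an SE of 0.34. That interval does not show that OLE1 stayed level, and bounds its mean change only to within these limits.

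ELO1 (YJL196C) encodes the elongase that works on medium-length chains, bringing them to the usual length of membrane fatty acids. Its signal was 14.3 and 10.8 times the array median at 0 h, 26.3 and 27.6 at 1 h, 27.8 and 23.7 at 2 h, 30.5 and 28.8 at 4 h, and 17.2 and 23.2 at 8 h. The lowest dried value, 17.2 in 8 h replicate 1, was above the higher fresh value, so no dried group overlapped 0 h. ELO1 rose 2.17-fold at 1 h, a log2 change of 1.12 ± 0.27 with a 95% interval of 0.54 to 1.69 (limma adjusted p = 0.0429). It was 2.06-fold higher at 2 h (1.04 ± 0.27), which missed the threshold with an adjusted p of 0.0775. At 4 h ELO1 rose 2.38-fold, a log2 change of 1.25 ± 0.27 with an interval of 0.68 to 1.83 (adjusted p = 0.0300). The value at 8 h was 1.60-fold that of 0 h (0.68 ± 0.27, adjusted p = 0.434) and did not pass.

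Averaged over the 4 dried times, ELO1 was 1.02 ± 0.21 log2 units above 0 h, with a 95% interval of 0.57 to 1.48 (limma adjusted p = 0.0190, higher in 8 of 8 dried arrays). Both 8 h arrays were below all 6 arrays of 1 h, 2 h and 4 h, though narrowly. The signal was 23.2 times the array median in 8 h replicate 2 and 23.7 in 2 h replicate 2. The share of all genes with that order was not computed. The 8 h mean was 0.57 below that of 4 h, which missed the threshold with an adjusted p of 0.66, and 8 h was not tested against 1 h or 2 h. Both calls at single times were close to the threshold and depended on single arrays. Without either 0 h array, ELO1 was called at no time and not for the mean of the dried times, where its change was 1.23 (adjusted p = 0.108) without 0 h replicate 1 and 0.82 (adjusted p = 0.443) without replicate 2. The 1 h and 4 h calls were each also lost without either 1 h array or either 4 h array, and the call for the mean without either 1 h array.

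ELO2 (YCR034W) and ELO3 (YLR372W) encode the elongases that make the very long chains found in sphingolipids. ELO2 read 4.36 and 4.32 times the array median at 0 h, 4.07 and 3.02 at 1 h, 2.90 and 4.59 at 2 h, 4.86 and 2.99 at 4 h, and 3.88 and 5.31 at 8 h. The fresh pair lay close together and the pairs at 2, 4 and 8 h straddled it. The mean of the dried times differed by -0.17 ± 0.24 with a 95% interval of -0.69 to 0.35 (limma adjusted p = 0.870).

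ELO3 read 9.61 and 9.63 times the array median at 0 h, 6.32 and 6.13 at 1 h, 4.99 and 7.90 at 2 h, 7.47 and 6.95 at 4 h, and 5.83 and 7.84 at 8 h. All 8 dried arrays were below both fresh ones. The changes of -0.63, -0.61, -0.42 and -0.51 at 1, 2, 4 and 8 h had an SE of 0.26 each, and their mean was -0.54 ± 0.21 with a 95% interval of -0.99 to -0.09. None passed after adjustment over all genes, with a limma adjusted p of 0.278 for the mean. Fitted on the 0 h and 1 h arrays alone, the 1 h change of ELO3 passed with an adjusted p of 0.0466, where the fit over all 10 arrays gave 0.293.

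ELO1 was then set against the other elongases within the same arrays. The log2 level of ELO1 minus that of ELO3 was 1.56 to 2.48 in the 8 dried arrays, with a mean of 1.94 ± 0.34 (SD, n = 8), against 0.58 and 0.17 in the 2 fresh arrays. ELO1 minus ELO2 was 2.13 to 3.27 in the dried arrays, with a mean of 2.71 ± 0.48 (SD, n = 8), against 1.72 and 1.32 in the fresh ones. Neither difference overlapped between dried and fresh arrays. For ELO3 this had to follow, since all 8 dried arrays were above the fresh pair for ELO1 and below it for ELO3. The mean was larger in dried yeast by 1.56 for ELO3 and by 1.19 for ELO2. These pairs were chosen after the levels of the genes had been seen, so the differences are a description with no test. Because each difference is taken within an array, the scaling of the array drops out of it.

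**Figure D4:**
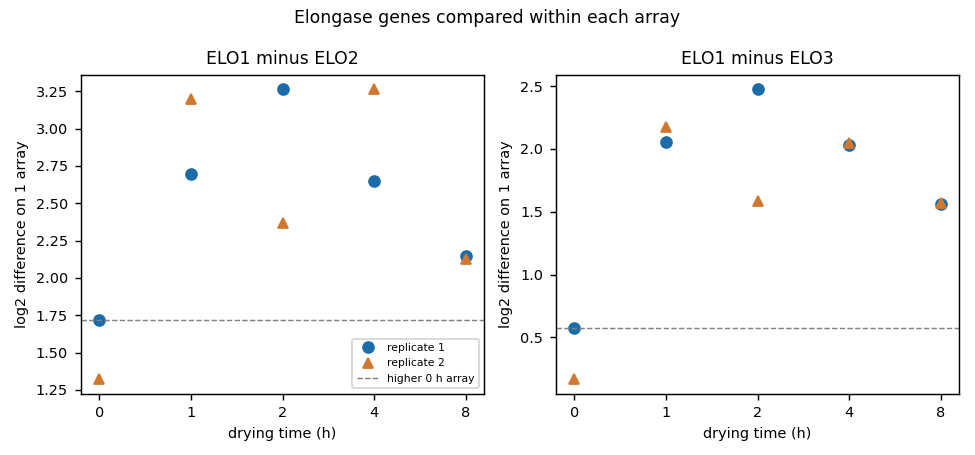
Log2 level of ELO1 minus that of ELO2 and of ELO3 on each of the 10 arrays, by hours of drying, with a dashed line at the higher 0 h array. The 8 dried arrays lie at 2.13 to 3.27 (ELO2) and 1.56 to 2.48 (ELO3), above the 0 h arrays at 1.32 and 1.72 and at 0.17 and 0.58.

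FAA1 (YOR317W) and FAA4 (YMR246W) encode the acyl-CoA synthetases that activate most imported long-chain fatty acids. FAA1 read 5.98 and 6.96 times the array median at 0 h, 9.95 and 7.93 at 1 h, 7.22 and 6.29 at 2 h, 5.67 and 6.26 at 4 h, and 5.63 and 6.05 at 8 h. Both 1 h arrays were above the fresh pair, and at the other times the groups overlapped. The change at 1 h was 0.46 ± 0.24 (limma adjusted p = 0.416), and the mean of the dried times differed by 0.07 ± 0.19. All 4 arrays of 4 h and 8 h were below all 4 of 1 h and 2 h, a difference of -0.39 ± 0.17 that missed the threshold (adjusted p = 0.377). Over all genes tested, 1.6% had that order of arrays.

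FAA4 read 3.60 and 3.30 times the array median at 0 h, 3.29 and 3.07 at 1 h, 2.87 and 2.14 at 2 h, 2.41 and 1.70 at 4 h, and 2.84 and 2.32 at 8 h. Every dried array was below both fresh ones, and the pair at 1 h lay just under them. The change was -0.77 ± 0.26 at 4 h (limma adjusted p = 0.238) and the mean of the dried times differed by -0.45 ± 0.21 (adjusted p = 0.418), neither past the threshold.

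FAA3 (YIL009W), a further acyl-CoA synthetase, was the dimmest probe set of the 10. It read 0.811 and 1.03 times the array median at 0 h, 1.01 and 0.793 at 1 h, 0.272 and 1.07 at 2 h, 1.27 and 0.628 at 4 h, and 0.953 and 1.30 at 8 h. The dried groups overlapped the fresh pair or straddled it, and the low value of 0.272 came from 2 h replicate 1, a dim array. The 2 arrays of 2 h had an SD of 1.40 log2 units, and the SE of a change at a single time was 0.53, the widest of the 10 genes. The mean of the dried times differed by -0.14 ± 0.42. Changes of this gene were not measurable with any precision here.

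A further member of the acyl-CoA synthetase family, FAA2, activates fatty acids inside peroxisomes and passed the test at 3 of the 4 times. It read 2.99 and 3.62 times the array median at 0 h, 14.1 and 11.9 at 1 h, 11.2 and 7.74 at 2 h, 8.99 and 8.96 at 4 h, and 5.09 and 6.83 at 8 h. No dried group overlapped 0 h, and its changes on the log2 scale at 1, 2, 4 and 8 h were 1.97, 1.50, 1.45 and 0.84. Limma gave adjusted p-values of 0.000999, 0.00794 and 0.0107 at 1, 2 and 4 h, which passed, and 0.212 at 8 h, which did not. FAT1 and PCS60, listed with it as a very long chain synthetase with a role in uptake and a peroxisomal synthetase-like protein, did not pass against 0 h at any time. PCS60 fell at 2 h against 1 h, by 1.19 ± 0.26 on the log2 scale (adjusted p = 0.0369).

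No member was called between drying times. Between 2 h and 1 h limma called 0 of them (1.85% of all genes), and 0 members and 14.5% of all genes had an unadjusted p under the threshold. Between 4 h and 2 h it called 0 of them and 0% of all genes, with 0 members and 7.44% of all genes at an unadjusted p under the threshold. Between 8 h and 4 h it called 0 of them against 0.0186% of all genes, and 1 member had an unadjusted p under the threshold, as did 7.46% of all genes. That member was FAS1, with a change of 1.37 that rests on the low 4 h array. The mean of 4 h and 8 h against the mean of 1 h and 2 h gave 0 calls among the members, against 0.764% of all genes, and FAA1 was the 1 member with an unadjusted p under the threshold, which 11.8% of all genes also had. For ELO1 that difference was -0.11 ± 0.19 (adjusted p = 0.856).

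The genes that feed, assist or regulate fatty acid synthesis were read as lists. Of 6 genes for precursors and cofactors, limma called 0 against 0 h at any time or for the mean of the dried times, and 2 had an unadjusted p under the threshold in one of those 5 comparisons. Over all genes that share was 29.2%, the background for the like counts of the lists that follow. ALD6, the cytosolic aldehyde dehydrogenase on the main route to cytosolic acetyl-CoA, read 36.4 and 6.03 times the array median at 8 h, against 74.0 and 49.9 at 0 h, and its mean change over the dried times was -1.24 ± 0.44 (adjusted p = 0.233). The 3 genes of electron transfer to the desaturase and the elongation partners IFA38, PHS1 and TSC13, which carry out the other steps of the elongation cycle, also had 0 limma calls. At an unadjusted p, 0 of the electron transfer genes and 1 of the partners were under the threshold. CYB5, cytochrome b5, differed by 0.00 ± 0.27 for the mean of the dried times. Of 7 genes of mitochondrial fatty acid synthesis 6 were tested and limma called 0 (3 at an unadjusted p), OAR1 being under the filter on dim probe sets; CEM1, its condensing enzyme, had the largest mean change of those named at -0.76 ± 0.28 (adjusted p = 0.247).

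Of 12 regulators, limma called 0, while 6 had an unadjusted p under the threshold in some comparison with 0 h. MGA2, which encodes a membrane-bound activator of OLE1, had changes of 0.97, 0.48, 0.80 and 0.87 at 1, 2, 4 and 8 h and a mean change of 0.78 ± 0.24 (limma adjusted p = 0.150). PIP2, which with Oaf1 activates genes of fatty acid degradation, had a mean change of 0.77 ± 0.23 (adjusted p = 0.143). INO4, an activator of phospholipid and fatty acid synthesis genes, had changes of -0.27, -0.95, -0.88 and -1.97, and the last had an adjusted p of 0.106. That 8 h change leans on 1 array. INO4 read 0.237 times the array median in 8 h replicate 1, the dimmest array, and 1.08 in replicate 2, against 2.14 and 1.85 at 0 h.

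Genes that use the acyl chains were mostly not called. Of 12 genes of glycerolipid synthesis and storage and 12 of phospholipid synthesis, limma called 0 against 0 h at any time or for the mean of the dried times, and 3 of each list had an unadjusted p under the threshold. The phospholipid list had median changes of -0.29, -0.26, -0.25 and -0.13 at 1, 2, 4 and 8 h. CDS1, which makes CDP-diacylglycerol, was its lowest named gene at -1.03 ± 0.31 at 2 h (limma adjusted p = 0.125). Of 12 genes of sphingolipid synthesis, 1 fell, SUR2, the hydroxylase that makes phytosphingosine. It read 7.01 and 5.26 times the array median at 0 h, 3.90 and 3.80 at 1 h, 2.59 and 2.41 at 2 h, 3.55 and 2.79 at 4 h, and 2.16 and 3.67 at 8 h. All dried values lay below both fresh ones, and SUR2 passed at 2 h (-1.28 ± 0.28, adjusted p = 0.0332) and for the mean of the dried times (-1.0 ± 0.22, adjusted p = 0.0287). Over all genes 1.51% were called at 2 h and 2.11% for that mean.

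Fatty acid degradation in peroxisomes was the list with most calls. Of its 12 genes, 5 rose at 1 h, 4 did so at 2 h, 3 at 4 h and 0 (limma) at 8 h, none fell, and the median log2 changes were 1.15, 1.21, 0.96 and 0.43. At 8 h 3 of them had an unadjusted p under the threshold, against 9.26% of all genes. By limma's adjusted p, 2.61%, 1.51%, 1.45% and 0.951% of all genes were called at 1, 2, 4 and 8 h. The list was chosen with earlier results of these data known. PXA1 and PXA2, which together form the peroxisomal importer of long-chain acyl-CoA, rose 3.54-fold and 4.95-fold at 1 h (limma adjusted p = 0.00363 and 0.000152). ECI1, an isomerase for unsaturated chains, rose 3.08-fold, FOX2, the multifunctional enzyme, 2.48-fold, and POX1, the acyl-CoA oxidase, 2.20-fold at 1 h. At 4 h PXA1, PXA2 and ECI1 still passed, at 3.37-fold, 3.16-fold and 2.45-fold. ELO1, at 2.17-fold and 2.38-fold at 1 h and 4 h, was below all 5 of these at 1 h and below PXA1, PXA2 and ECI1 at 4 h, when FOX2 and POX1 stood at 2.01-fold and 1.50-fold without passing. The differences from ELO1 were not tested.

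For ELO1, FAA4 and FAS1, the members with the smallest F test p, the genes of most similar pattern were sought among all genes tested. By likeness over the 10 arrays, measured as Pearson's r of log2 levels, ELO1 was nearest to PXA1 (r = 0.978), then RTC3 (0.939) and PEX11 (0.937). PEX11 encodes a peroxisomal membrane protein needed for proliferation of the organelle. The genes most like FAA4 were YMD8 (0.955), ADY4 (0.907) and TFG2 (0.893), and those most like FAS1 were FIP1 (0.978), BUB2 (0.959) and URA5 (0.958). These are descriptions over 10 arrays that share their scaling, chosen as the highest of all genes tested, and those of FAS1 include the single low 4 h reading. Among the members themselves ELO1 and ELO3 had r = -0.618, while ACC1 and OLE1 had r = 0.698 and ELO2 and FAA3 r = 0.81.

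**Figure D5:**
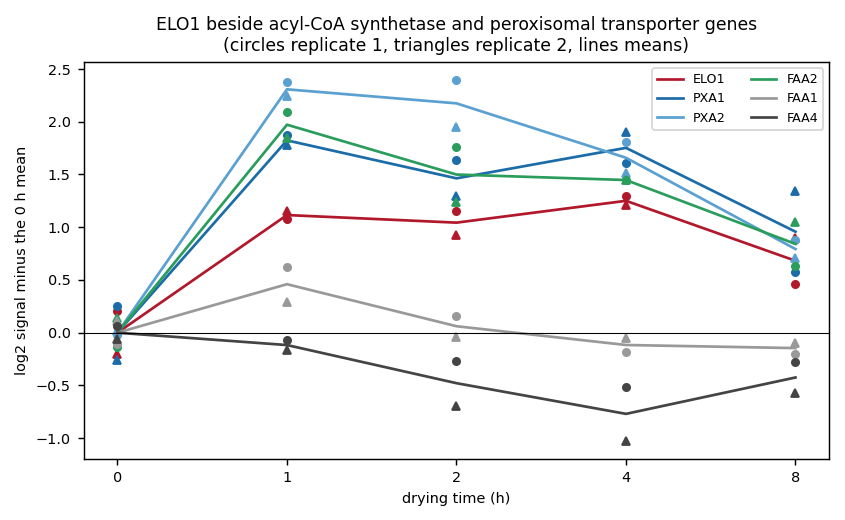
Log2 signal minus the 0 h mean, by hours of drying, for ELO1, PXA1, PXA2, FAA2, FAA1 and FAA4, with circles (replicate 1) and triangles (replicate 2) for the 10 arrays and lines through the means of 2. ELO1 reaches 1.12 at 1 h and 1.25 at 4 h, PXA1 1.82 and 1.75, and FAA4 is at -0.77 at 4 h.

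The culture was checked for cells of another state. Of 8 mating and haploid cell markers and 6 sporulation markers that passed the filter, limma called 0 in any comparison (5 and 1 had an unadjusted p under the threshold in one of the 9, as did 40.8% of all genes), and 2 further sporulation markers, DIT2 and SMK1, were under the filter. The sporulation markers NDT80, SPS1 and SPO11 were dim, at no more than 0.775, 0.7 and 0.433 times the array median on any array. Their lack of calls therefore says little about such cells. Mean changes of the mating markers over the dried times ran from -1.23 to 1.43, with a median of 0.53. The lowest was that of MF(ALPHA)1 (limma adjusted p = 0.278), itself dim at no more than 0.693 times the array median on any array. ACT1, encoding actin, differed by -0.05 ± 0.30 for the mean of the dried times against 0 h (limma adjusted p = 0.977).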

How the data were processed

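Per the submitters' processing notes, the authors used GCOS, Affymetrix's array software, version not given. They deposited a linear signal intensity for every probe set and array. These intensities were scaled to the array median over 9275 non-control probe sets, floored at 0.1 of it, and put on a log2 scale, dropping probe sets whose mean fell under -2.32 (0.2 of the median). The brightest single-gene probe set stood for each gene, with symbols from the platform annotation updated through the R64 reference table.

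Group means over all 10 arrays were fitted with limma 3.58.1 (R 4.3.3) and a variance trend, giving two-sided Benjamini-Hochberg adjusted p-values over 5365 genes. The fit was tested on data simulated for 1 h against 0 h, with 200 of 5365 genes changed. It recovered 25% of changes of 1 log2 unit and 89% of changes of 2, with 6 false calls among 120. Changes of about 1 log2 unit were thus mostly missed there, so a member without a call may still have changed.

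The 10 members, the 12 other lists and the rule for named genes (in each list, every gene called against 0 h and the 3 with the smallest F test p) were chosen with earlier results of these data known. Alternatives covered scaling, floor, filter, probe set summary, variance model, replicate block and leaving out arrays. Arrays have no read depth, so their number limits the precision. Detection calls, genome coordinates and sequences were not used here, so the planned look at promoter motifs and protein identity was not made. The design text calls the duplicate experiments independent, but the labels do not say whether they were separate cultures. The p-values may therefore measure technical spread.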

Additional observations from a re-analysis of the deposited data

How the results depend on the processing

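The direction of ELO1 against 0 h was the same at every dried time under all alternatives run, and only its calls moved. Its change was 0.91 to 1.32 at 1 h (called in 11 of 21 alternatives), 0.42 to 1.25 at 2 h (5), 1.05 to 1.50 at 4 h (12), 0.38 to 0.90 at 8 h (0), and 0.82 to 1.23 for the mean of the dried times (13 of 20). The number of members called at 1 h was 0 with 75th percentile scaling, no scaling, a higher floor or no variance trend, and 2 (ELO1 and ELO3) when the fit held the compared groups alone. At 2 h it was 1 (ELO1) with 75th percentile scaling, quantile normalization or the replicate block. At 4 h and for the mean of the dried times it was 0 with no scaling, a higher floor or no variance trend. Leaving out 1 replicate gave 0 to 1 members called at 1 h, 2 h, 4 h, for the mean of the dried times, and for the steps 4 h against 2 h and 8 h against 4 h. In both steps the 1 was FAS1 without 4 h replicate 1, at -2.07 and 2.52. With the replicate block ELO1 passed at 2 h (limma adjusted p = 0.0463), and the block changed no other call among the members. Replicate differences at different times correlated at -0.0585 to 0.175 over all genes, above 0.1 for 4 of 10 pairs of times. Of all genes, 7.7% were higher in replicate 1 at all 5 times and 3.04% in replicate 2. The main fit did not take the numbers as pairs, and the block was run as an alternative. For OLE1, 1 of 4 members with the same sign at all 5 times, the block gave an SE of 0.23 in place of 0.34 at 1 h. Relative to the median of all genes, the mean change of ELO1 was 1.02 to 1.03 under each scaling; with no scaling that median moved by -0.67 at 2 h. Another 115 member changes, called in neither setting, turned sign. Over all genes the count called (140 at 1 h) was 1 to 530 over the alternatives at 1 h, 0 to 252 at 2 h (81), 0 to 232 at 4 h (78), 0 to 186 at 8 h (51), and 1 to 229 for the mean of the dried times (113). It was 0 to 400 for 2 h against 1 h (99), 0 to 84 for 4 h against 2 h (0), 0 to 38 for 8 h against 4 h (1), and 0 to 165 for late against early drying (41). The share of higher calls at 1 h was 85% with median scaling and 75% with 75th percentile scaling; at 2 h it was 54.3% and, with quantile normalization, 64.4%. For 2 h against 1 h it was 44.4%, 73.5% and 57.5% with median, 75th percentile and quantile scaling, and for late against early drying 48.8% and 37.5% with median and 75th percentile scaling. The causes were not tested. Having 2 arrays per time, and dim probe sets such as FAA3, limits what could be called.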
